A study of Hakea laurina with 6 samples.

Results

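The contigs described here are the nitrogen uptake, nitrogen assimilation and amino acid transport contigs of Hakea laurina roots, 79 of the 7819 annotated contigs in the authors' table and of 183999 in the count table. They were selected on words in the Arabidopsis description (nitrate, nitrite, ammonium, glutamine, glutamate, asparagine, amino acid, peptide transporter or Major facilitator, without glutamate receptors and AUX1/LAX auxin carriers) and on the authors' CPM, which had to be 1 or more in all 3 libraries of at least 1 root type. The authors' table lists contigs that differed between the root types in their own test, so both that difference and the CPM minimum chose the members. All values of the members by root type are therefore a description, which includes the counts of members past the threshold of a test, and no p is given for a member.

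Roots of 2 kinds from H. laurina, a cluster-rooted Proteaceae, were compared by RNA-Seq: mature cluster roots (MCR, 3 libraries) and the tips of lateral roots that bear clusters (TCR, 3 libraries). The plants of both groups were about 3 yr old and had been kept in a glasshouse in hydroponic solution without phosphorus (P), to which 6.4 μM NaH2PO4 was added every 2 to 3 months. Ammonium nitrate was the nitrogen source in the solution of both groups. Neither the labels nor the methods say whether libraries with different numbers came from different plants or containers, so the spread between them may be partly technical. The titles of the samples give the root types as used here, whereas the tissue field of every library names the other root type. If that field were right, every direction below would be the opposite.

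Roots take up nitrogen mainly as nitrate and ammonium. Nitrate is reduced to nitrite by nitrate reductase and on to ammonium by nitrite reductase, and glutamine synthetase and glutamate synthase bring ammonium into amino acids. Nitrate transporters of the NRT1 family belong to the same Major facilitator superfamily as the di- and tripeptide transporters, while amino acid permeases and cationic amino acid transporters move amino acids across the plasma membrane and the vacuolar membrane. Cluster roots, dense groups of short rootlets that Proteaceae form at low P, are known mainly for the release of carboxylates and the uptake of P.

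The estimated counts summed to between 15718871 and 19119494 in MCR and between 13583740 and 16622567 in TCR. Libraries numbered 3 had counts for the fewest contigs in both root types: 87361 in MCR3 and 85093 in TCR3, against 119736 and 135523 in the other MCR libraries and 95758 and 106702 in the other TCR libraries. By this measure MCR3 stood apart, whereas TCR3 was about as far from TCR1 as TCR1 from TCR2. The markers of mature cluster roots followed the titles, and those of the tip did so in part. They were sought in the authors' table, whose contigs were all chosen for a difference between the root types. Of its 4604 contigs that passed the CPM minimum, 25.5% were higher in MCR, and of the 3215 below it, 94.4%. The authors' CPM summed over 3 cyclin B contigs, which mark dividing cells, was 3.70 to 4.75 in MCR and 38.6 to 61.7 in TCR, and the sum over 7 histone contigs was 10.3 to 56.8 in MCR and 86.0 to 193.9 in TCR. The contigs of these sets were mixed, with 1 of the cyclin B contigs and 3 of the histone contigs higher in MCR. The sum over 3 kinesin-like contigs was 267 to 448 in MCR and 145 to 218 in TCR, although 1 of them was higher in MCR and 2 in TCR. All 22 contigs described as phosphate transporter 1 and 34 of 36 described as purple acid phosphatase were higher in MCR. No contig described as PLETHORA or SHORT ROOT, which mark the root tip, was found in the table, WUSCHEL related homeobox 5 reached 1.73 CPM in TCR, and the single SCARECROW contig was highest in MCR2. The malate transporter HalALMT1, which the study picked from these libraries, had 24.0 to 30.4 CPM in MCR and 4.36 to 14.7 CPM in TCR, with the highest TCR value in TCR3. For green tissue, the 1 chlorophyll A/B contig had 0.334 to 0.958 CPM in MCR and 8.48 to 24.8 CPM in TCR. Of 4 photosystem contigs, 2 were higher in MCR and 2 in TCR. In whole tissue, fewer cells of a type and less RNA per cell cannot be told apart.

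Of the 79 contigs, 32 had their higher level in MCR and 47 in TCR. The values given below are CPM, the estimated reads of a contig scaled to a common library size, after normalization between libraries with TMM factors (trimmed mean of M values), and the change is the fitted log2 fold change of MCR over TCR with its standard error (SE), so that a positive value means higher in MCR. A contig was called when the adjusted p of edgeR's quasi-likelihood test over all contigs was below 0.05 and the change was at least 1 on the log2 scale. With that rule 19 members were called higher in MCR, beside 2.4% of the 49813 contigs tested, and 26 were called higher in TCR, beside 5.98%. All 3 MCR libraries lay above all 3 TCR libraries in 25 members, beside 10.7% of the contigs tested, and the reverse held in 42 members, beside 20.3%. The remaining 12 overlapped between root types. Of the 4604 annotated contigs that passed the same CPM minimum, 16.9% were called higher in MCR and 53.2% higher in TCR. All MCR libraries lay above all TCR libraries in 21.9% of these, and the reverse held in 71.7%. Because the members came from contigs chosen for this difference, nothing is read from these shares. The median change of the members was -1.64, against 0.57 for all contigs tested and -2.21 for the 4604 annotated contigs that passed the same CPM minimum. Libraries with the same number deviated together, mainly number 3 against the others, and with the replicate number as a block (replicate block) 30 members were called higher in MCR, beside 20.1% of all contigs tested, and 47 higher in TCR, beside 15.4%. The 2 members not called with the block were a STP13 contig (DN2608_c0_g1) and an amino acid transporter contig (DN4897_c0_g1). The counts rested on single libraries as well: 4 members were called higher in MCR and 3 higher in TCR without TCR1 (beside 0.417% and 0.656% of all contigs tested in that fit), 4 and 4 without TCR2 (0.508% and 0.794%), and 15 and 16 without MCR1 (2.07% and 3.14%). For the libraries numbered 3, 26 and 33 were called without MCR3 (5.74% and 7.65%), and 13 and 24 without TCR3 (1.8% and 5.19%).

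**Figure D1:**
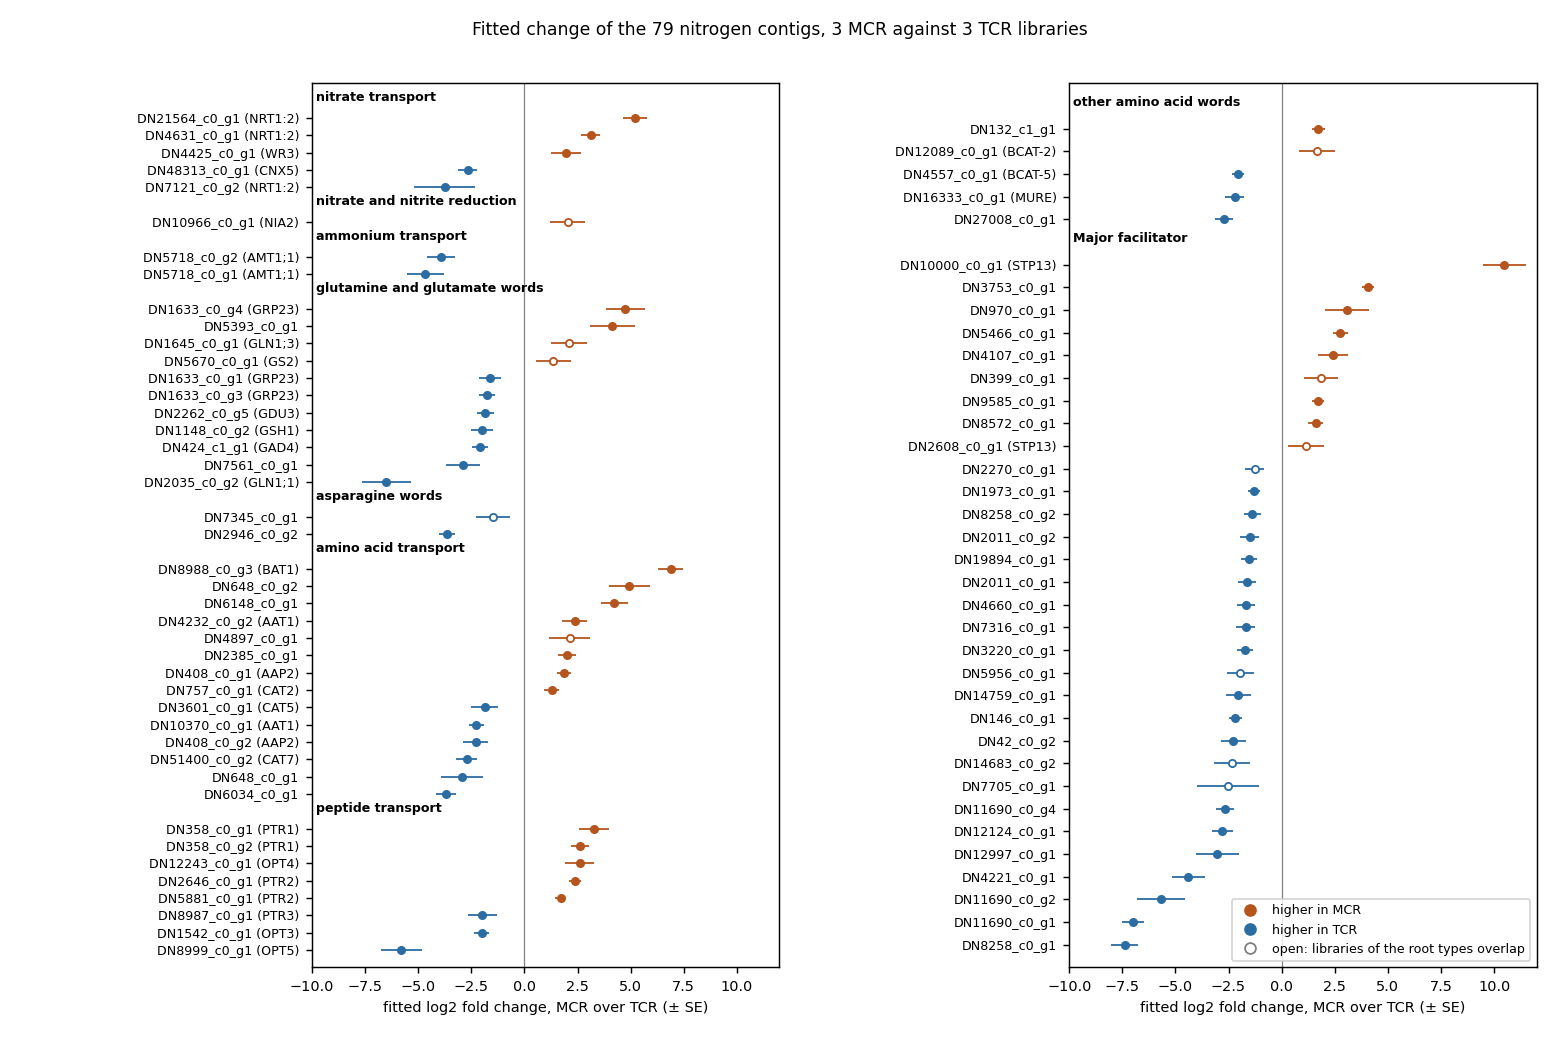
Fitted log2 fold change (MCR over TCR, horizontal axis) with its SE for each of the 79 contigs, grouped by the words in the description. Orange points stand for the 32 contigs with the higher level in MCR, blue points for the 47 with the higher level in TCR, and open points for the 12 contigs whose libraries overlap between the root types; every group with more than 2 contigs has members on both sides of 0.

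The nitrate transport group, formed by words, held 5 contigs, 3 with the higher level in MCR and 2 in TCR. The libraries of each root type did not overlap in any of them. Nothing is read from this, since 21.9% and 71.7% of annotated contigs past the same CPM minimum did not overlap (higher in MCR and in TCR). The members of the group higher in TCR include CNX5, an enzyme and not a transporter, so the split is not one of nitrate transporters alone. A nitrate transporter described only as a Major facilitator protein would not be in this group. All contig identifiers begin with TRINITY, which is left out here. The contigs DN21564_c0_g1, DN4631_c0_g1 and DN7121_c0_g2 matched Arabidopsis NRT1:2 (AT1G69850), a low-affinity nitrate transporter that also carries abscisic acid. DN21564_c0_g1 had 216, 133 and 296 CPM in MCR1, MCR2 and MCR3, against 6.23, 8.46 and 2.78 CPM in TCR1, TCR2 and TCR3, a change of 5.21 ± 0.56. DN4631_c0_g1 had 394, 352 and 640.2 CPM in MCR1–3, against 32.9, 45.7 and 81.4 CPM in TCR1–3, a change of 3.11 ± 0.45. These are the contigs the study names as nitrate-uptake transporters, and in both of them MCR3 was the highest library, while TCR3 was the lowest TCR library of the first and the highest of the second. The third NRT1:2 contig had the opposite direction: DN7121_c0_g2 had 0.0679, 0 and 1.09 CPM in MCR1–3, against 5.01, 7.60 and 3.43 CPM in TCR1–3, a change of -3.75 ± 1.43. Its MCR values rested on 19 counts, nearly all in MCR3, so that the change was -7.11 without MCR3, -2.95 without MCR1 and -2.85 without MCR2. The 3 contigs that matched NRT1:2 summed to 677 ± 234 CPM in MCR and 64.5 ± 21.9 CPM in TCR (SD, n = 3 each). The sum takes no account of contig length, and the contigs may be separate genes.

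The contig of WR3 (AT5G50200, described as a nitrate transmembrane transporter), which in Arabidopsis is the partner protein of high-affinity nitrate transporters, was also higher in MCR. DN4425_c0_g1 had 215, 43.7 and 52.4 CPM in MCR1–3, against 13.9, 26.3 and 39.1 CPM in TCR1–3, a change of 1.97 ± 0.70. MCR1 stood far above the other MCR libraries, MCR2 and TCR3 were close to each other, and the change was 1.07 without MCR1. CNX5 (AT5G55130), an enzyme of the synthesis of the molybdenum cofactor that nitrate reductase needs, was lower in MCR. DN48313_c0_g1 had 5.77, 4.93 and 4.5 CPM in MCR1–3, against 43.4, 37.0 and 17.0 CPM in TCR1–3, a change of -2.68 ± 0.44. Its MCR libraries lay within a narrow range, and TCR3 was well below the other TCR libraries.

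Nitrate reduction was represented among the members by 1 contig, NIA2 (AT1G37130), a nitrate reductase. DN10966_c0_g1 had 763, 139.5 and 615 CPM in MCR1–3, against 52.6, 59.5 and 260.1 CPM in TCR1–3, a change of 2.03 ± 0.83. The root types overlapped, since TCR3 lay above MCR2, and the change was 3.22 without TCR3. The contig of GS2 (AT5G35630), the plastid form of glutamine synthetase, split the libraries in the same way. DN5670_c0_g1 had 324, 80.3 and 441 CPM in MCR1–3, against 47.2, 47.4 and 234 CPM in TCR1–3, a change of 1.36 ± 0.82 and of 2.62 without TCR3. In both contigs MCR1, MCR3 and TCR3 were high and MCR2, TCR1 and TCR2 were low.

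The 2 other glutamine synthetase members, which matched cytosolic forms, pointed in opposite directions. GLN1;3 (AT3G17820, DN1645_c0_g1) had 23.5, 48.5 and 3.28 CPM in MCR1–3, against 7.01, 6.44 and 4.08 CPM in TCR1–3, a change of 2.10 ± 0.85. MCR3 lay below every TCR library here, and the change was 1.47 without MCR2, the library with the highest value. GLN1;1 (AT5G37600, DN2035_c0_g2) had 0, 0.249 and 0.182 CPM in MCR1–3, against 17.2, 21.1 and 3.76 CPM in TCR1–3, a change of -6.51 ± 1.16 and of -5.63 without MCR1. This contig was nearly without counts in MCR: 7 counts over the 3 MCR libraries against 653 over the 3 TCR libraries. The ratio of the TCR to the MCR level was 90.5, with a 95% interval of 43.7 to 226 that covers counting error only. TCR3 was also the lowest TCR library of GLN1;1. The 3 glutamine synthetase members therefore had 3 different orders of libraries. The CPM minimum left out DN29422_c0_g1 (GS2), DN32053_c0_g1 and DN41253_c0_g1 (GLN1;3) and DN34780_c0_g1 (GLN1;1), all higher in MCR. The direction of DN34780_c0_g1 was thus opposite to that of the GLN1;1 member. It had 3.93 CPM in MCR2 and no count in any other library.

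Ammonium transport held 2 contigs, both from assembly cluster DN5718_c0, both matched to AMT1;1 (AT4G13510), a high-affinity ammonium transporter of Arabidopsis roots, and both lower in MCR. DN5718_c0_g1 had 0.204, 0.374 and 0.0608 CPM in MCR1–3, against 7.66, 5.09 and 4.03 CPM in TCR1–3, a change of -4.67 ± 0.86. DN5718_c0_g2 had 0.271, 0.312 and 0.243 CPM in MCR1–3, against 3.79, 4.47 and 4.52 CPM in TCR1–3, a change of -3.91 ± 0.66. Every MCR value was below 0.4 CPM and every TCR value above 3 in both contigs. Contigs of 1 assembly cluster share sequence, and how their common reads were divided is uncertain, so the sum of both is also given: 0.488 ± 0.191 CPM in MCR and 9.85 ± 1.47 CPM in TCR (SD, n = 3 each). The CPM minimum left out 4 further ammonium transport contigs, all higher in MCR and all highest in MCR2. Of these, DN86607_c0_g1 also matched AMT1;1, with 2.49 CPM in MCR2 and no count in any other library, and is not in the sum.

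**Figure D2:**
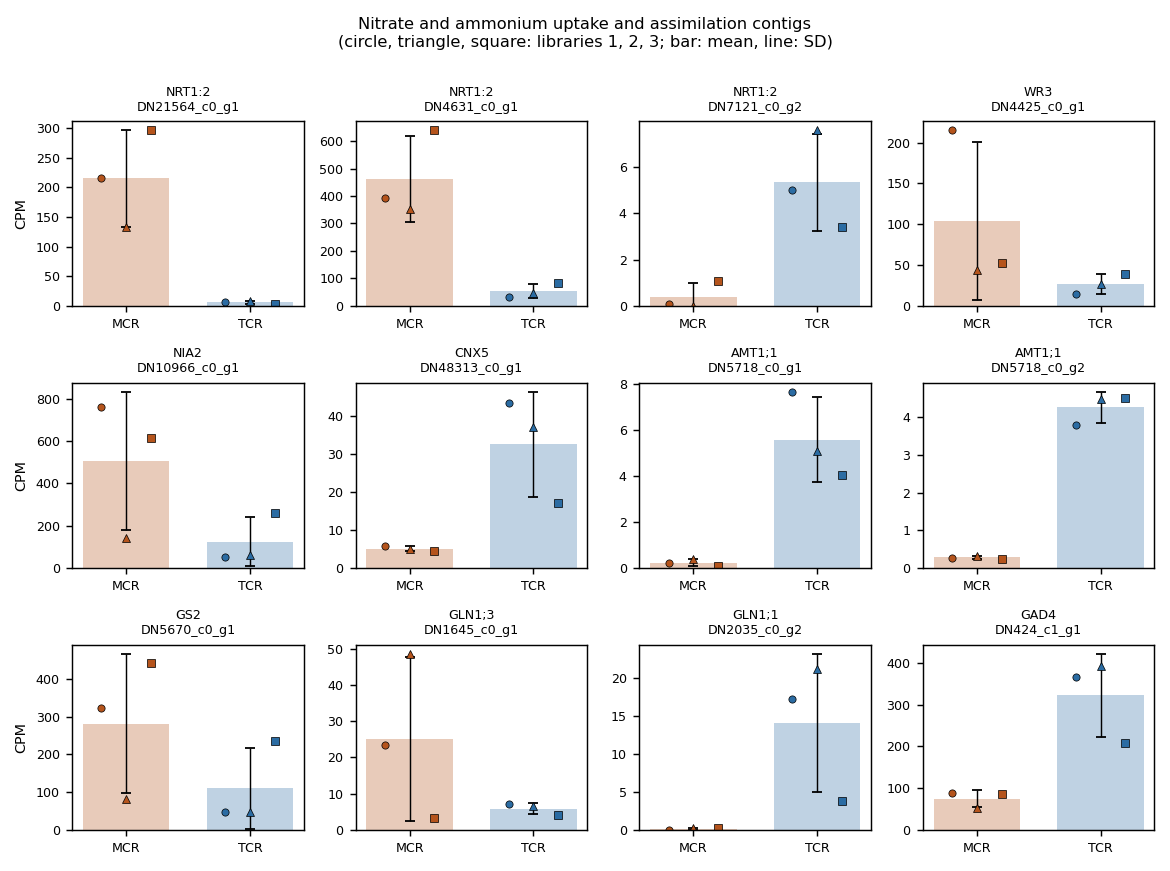
CPM (vertical axis, starting at 0, a scale of its own in each panel) of 12 contigs of nitrate and ammonium uptake and assimilation, MCR left and TCR right. Points are libraries 1, 2 and 3, bars the mean and lines the SD (n = 3). DN21564_c0_g1 and DN4631_c0_g1 have all MCR libraries above all TCR libraries, both AMT1;1 contigs shown have the reverse, and NIA2 and GS2 share high values in MCR1, MCR3 and TCR3.

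The other contigs with glutamine or glutamate in the description did other work. The member that matched glutamate decarboxylase GAD4 (AT2G02010), which turns glutamate into gamma-aminobutyric acid, was lower in MCR: DN424_c1_g1 had 88.5, 51.1 and 84.9 CPM in MCR1–3, against 365, 392 and 208 CPM in TCR1–3, a change of -2.10 ± 0.37. The CPM minimum left out DN109163_c0_g1 and DN163699_c0_g1, which also matched GAD4 and were higher in MCR. The first of them had 11.9, 6.86 and 0 CPM in MCR1–3, against 0.573, 1.04 and 0 CPM in TCR1–3. Glutamate-cysteine ligase GSH1 (AT4G23100), the enzyme of the first step of glutathione synthesis, was lower in MCR too. DN1148_c0_g2 had 80.3, 87.9 and 229 CPM in MCR1–3, against 580.2, 659.6 and 343 CPM in TCR1–3, a change of -1.99 ± 0.50, with MCR3 the highest MCR library, and the change was -2.73 without MCR3. The contig of the aspartate-glutamate racemase family (AT1G15410, DN7561_c0_g1) had 1.09, 3.68 and 0.669 CPM in MCR1–3, against 14.1, 19.7 and 6.70 CPM in TCR1–3, a change of -2.89 ± 0.79 and of -3.62 without MCR2. Glutamine dumper GDU3 (AT5G57685), a small membrane protein whose family raises amino acid export in Arabidopsis when overproduced, had 11.4, 14.5 and 17.4 CPM in MCR1–3, against 58.9, 68.4 and 27.8 CPM in TCR1–3 in DN2262_c0_g5, a change of -1.84 ± 0.41. In all of these members TCR2 was the highest TCR library and TCR3 the lowest.

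A contig described as class I glutamine amidotransferase-like (AT2G23970), a superfamily name that does not give its reaction, was higher in MCR. DN5393_c0_g1 had 167, 13.4 and 32.7 CPM in MCR1–3, against 4.65, 6.19 and 1.36 CPM in TCR1–3, a change of 4.13 ± 1.05. MCR1 was far above the other MCR libraries, and the change was 2.85 without MCR1 and 4.94 without MCR2. All 3 members of cluster DN1633_c0 matched GRP23 (AT1G10270), named for its glutamine-rich sequence and not an enzyme of nitrogen metabolism. DN1633_c0_g4 had 10.5, 16.0 and 60.8 CPM in MCR1–3, against 0.358, 0.919 and 1.91 CPM in TCR1–3, a change of 4.75 ± 0.93, which was 3.54 without MCR3, 5.35 without MCR1 and 5.53 without TCR3. DN1633_c0_g1 had 15.9, 5.18 and 7.54 CPM in MCR1–3, against 37.7, 33.7 and 17.6 CPM in TCR1–3, a change of -1.64 ± 0.52 and of -1.04 without MCR2. DN1633_c0_g3 had 11.3, 6.17 and 12.5 CPM in MCR1–3, against 35.4, 34.5 and 32.0 CPM in TCR1–3, a change of -1.76 ± 0.36. The first was thus higher in MCR and the others lower, and their sum was 48.6 ± 28.3 CPM in MCR and 64.7 ± 11.6 CPM in TCR (SD, n = 3 each), with MCR3 above all TCR libraries.

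Both contigs with asparagine in the description were peptide-N4-(N-acetyl-beta-glucosaminyl)asparagine amidases, which remove sugar chains from asparagine residues of glycoproteins and do not make asparagine. DN2946_c0_g2 (AT5G05480) had 2.44, 1.93 and 1.76 CPM in MCR1–3, against 26.2, 29.8 and 20.8 CPM in TCR1–3, a change of -3.64 ± 0.37. DN7345_c0_g1 (AT3G14920) had 9.16, 3.93 and 37.4 CPM in MCR1–3, against 33.9, 34.3 and 74.7 CPM in TCR1–3, a change of -1.50 ± 0.80. The first separated the root types by a wide margin, whereas the second overlapped, with MCR3 and TCR3 the highest library of each root type, and its change was -2.93 without MCR3 and -0.83 without MCR2.

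Peptide transport held 8 contigs, of which 5 had the higher level in MCR and 3 in TCR, none with overlapping root types. Of the annotated contigs that passed the same CPM minimum, 21.9% had all MCR libraries above all TCR libraries and 71.7% the reverse. Nothing is therefore read from the lack of overlap. Both contigs of PTR1 (AT3G54140), a transporter of di- and tripeptides, came from cluster DN358_c0 and were higher in MCR. DN358_c0_g2 had 1086, 563 and 416 CPM in MCR1–3, against 83.0, 119 and 135 CPM in TCR1–3, a change of 2.61 ± 0.44. DN358_c0_g1 had 184, 420.3 and 82.6 CPM in MCR1–3, against 27.1, 33.8 and 10 CPM in TCR1–3, a change of 3.28 ± 0.71. The highest library was MCR1 in the first and MCR2 in the second, and the sum of both was 917 ± 390 CPM in MCR and 136 ± 22.8 CPM in TCR (SD, n = 3 each). OPT4 (AT5G64410, DN12243_c0_g1), a transporter of oligopeptides, had 1079, 312 and 172 CPM in MCR1–3, against 82.1, 109 and 64.9 CPM in TCR1–3, a change of 2.61 ± 0.69. MCR1 was more than 3 times as high as MCR2, the next library, and the change was 1.78 without MCR1. PTR2 (AT2G02040), another di- and tripeptide transporter, was steadier: DN2646_c0_g1 had 83.1, 117 and 117 CPM in MCR1–3, against 17.2, 20.1 and 23.0 CPM in TCR1–3, a change of 2.39 ± 0.29. A second PTR2 contig, DN5881_c0_g1, had 57.2, 65.1 and 70.3 CPM in MCR1–3, against 16.1, 20.6 and 22.5 CPM in TCR1–3, a change of 1.70 ± 0.27. In both PTR2 contigs MCR1 was the lowest MCR library, by less than 1.5-fold.

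The peptide transport contigs that were lower in MCR were PTR3, OPT3 and OPT5. OPT3 (AT4G16370), which in Arabidopsis moves iron into the phloem and is a member of the oligopeptide transporter family by sequence, had 160.5, 160.2 and 142 CPM in MCR1–3, against 744, 769 and 358 CPM in TCR1–3 in DN1542_c0_g1, a change of -2.02 ± 0.36. The MCR libraries were nearly equal, and TCR3 was well below the other TCR libraries. DN15663_c0_g1 also matched OPT3 but fell below the CPM minimum and was higher in MCR. It had 0.136, 2.06 and 1.58 CPM in MCR1–3, against 0.0716, 0 and 0 CPM in TCR1–3. PTR3 (AT5G46050, DN8987_c0_g1) had 10.9, 4.05 and 1.58 CPM in MCR1–3, against 22.7, 24.8 and 17.7 CPM in TCR1–3, a change of -1.98 ± 0.68 and of -2.68 without MCR1. OPT5 (AT4G26590, DN8999_c0_g1) had 0.0679, 0.125 and 0.122 CPM in MCR1–3, against 8.45, 8.64 and 1.69 CPM in TCR1–3, a change of -5.79 ± 0.95. OPT5 had 5 counts over the 3 MCR libraries and 290 over the 3 TCR libraries, a ratio of 56.3 of the TCR to the MCR level (95% interval 23.8 to 175, counting error only).

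Amino acid transport held 14 contigs, with the higher level in MCR in 8 and in TCR in 6. BAT1 (AT2G01170), which moves amino acids across membranes in both directions, was close to absent from TCR. DN8988_c0_g3 had 32.7, 28.6 and 16.1 CPM in MCR1–3, against 0.286, 0.245 and 0.109 CPM in TCR1–3, a change of 6.89 ± 0.59. With 1205 counts over the 3 MCR libraries and 10 over the 3 TCR libraries, the ratio of the MCR to the TCR level was 124 (95% interval 67.3 to 260, counting error only). All MCR libraries were far above all TCR libraries, and MCR3 was the lowest MCR library. A set of 3 contigs matched the transmembrane amino acid transporter AT1G08230, and all were higher in MCR. DN6148_c0_g1 had 20.4, 76.8 and 39.8 CPM in MCR1–3, against 1.57, 1.84 and 3.86 CPM in TCR1–3, a change of 4.22 ± 0.64. DN2385_c0_g1 had a change of 2.0 ± 0.42 without overlap, and DN4897_c0_g1 had 3.12, 14.6 and 65.8 CPM in MCR1–3, against 5.87, 8.40 and 4.84 CPM in TCR1–3, a change of 2.13 ± 0.96. The last overlapped and rested on MCR3, with a change of 0.39 without it, 2.96 without MCR1 and 2.75 without MCR2. Summed, the AT1G08230 contigs had 177 ± 42.4 CPM in MCR and 34.6 ± 4.22 CPM in TCR (SD, n = 3 each).

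Cationic amino acid transporters were found on both sides. AAT1, also called CAT1 (AT4G21120), a transporter of basic amino acids, had 1 contig of each direction. DN4232_c0_g2 had 461, 149 and 259 CPM in MCR1–3, against 28.2, 51.1 and 89.9 CPM in TCR1–3, a change of 2.36 ± 0.57. DN10370_c0_g1 had 6.31, 11.4 and 7.30 CPM in MCR1–3, against 42.7, 44.6 and 32.6 CPM in TCR1–3, a change of -2.26 ± 0.35. The contig higher in MCR varied between libraries of both root types, with TCR3 the highest TCR library, whereas the contig lower in MCR varied less. CAT2 (AT1G58030, DN757_c0_g1), which sits in the vacuolar membrane in Arabidopsis, had 344, 624 and 480.0 CPM in MCR1–3, against 158, 178 and 260.3 CPM in TCR1–3, a change of 1.28 ± 0.34. CAT7 (AT3G10600, DN51400_c0_g2) had 1.09, 2.0 and 1.34 CPM in MCR1–3, against 11, 8.15 and 10.1 CPM in TCR1–3, a change of -2.72 ± 0.51. CAT5 (AT2G34960, DN3601_c0_g1) had 21.3, 3.56 and 7.78 CPM in MCR1–3, against 29.8, 33.7 and 56.4 CPM in TCR1–3, a change of -1.88 ± 0.66, which was -2.60 without MCR1 and -1.26 without MCR2. CAT2 was thus higher and CAT5 and CAT7 lower in MCR.

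AAP2 (AT5G09220), an amino acid permease that in Arabidopsis moves amino acids between xylem and phloem, had 2 contigs of 1 cluster and of opposite direction. DN408_c0_g1 had 645, 573 and 448 CPM in MCR1–3, against 132, 125 and 202 CPM in TCR1–3, a change of 1.86 ± 0.31. DN408_c0_g2 had 4.68, 10.8 and 2.49 CPM in MCR1–3, against 29.8, 36.6 and 22.0 CPM in TCR1–3, a change of -2.30 ± 0.57. Their sum, 561 ± 102 CPM in MCR and 182 ± 35.7 CPM in TCR (SD, n = 3 each), had the direction of the first contig. The transmembrane amino acid transporter AT3G28960 had the same arrangement within cluster DN648_c0. DN648_c0_g2 had 182, 76.3 and 28.6 CPM in MCR1–3, against 3.94, 4.78 and 0.653 CPM in TCR1–3, a change of 4.94 ± 0.96. DN648_c0_g1 had 1.9, 5.8 and 0.304 CPM in MCR1–3, against 28.1, 25.2 and 8.33 CPM in TCR1–3, a change of -2.94 ± 0.99 and of -3.90 without MCR2. In both DN648_c0 contigs MCR3 and TCR3 were the lowest library of their root type. The transmembrane amino acid transporter AT1G47670 was lower in MCR: DN6034_c0_g1 had 4.89, 1.93 and 2.19 CPM in MCR1–3, against 43.1, 40.8 and 33.2 CPM in TCR1–3, a change of -3.70 ± 0.47, with the TCR libraries close together.

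**Figure D3:**
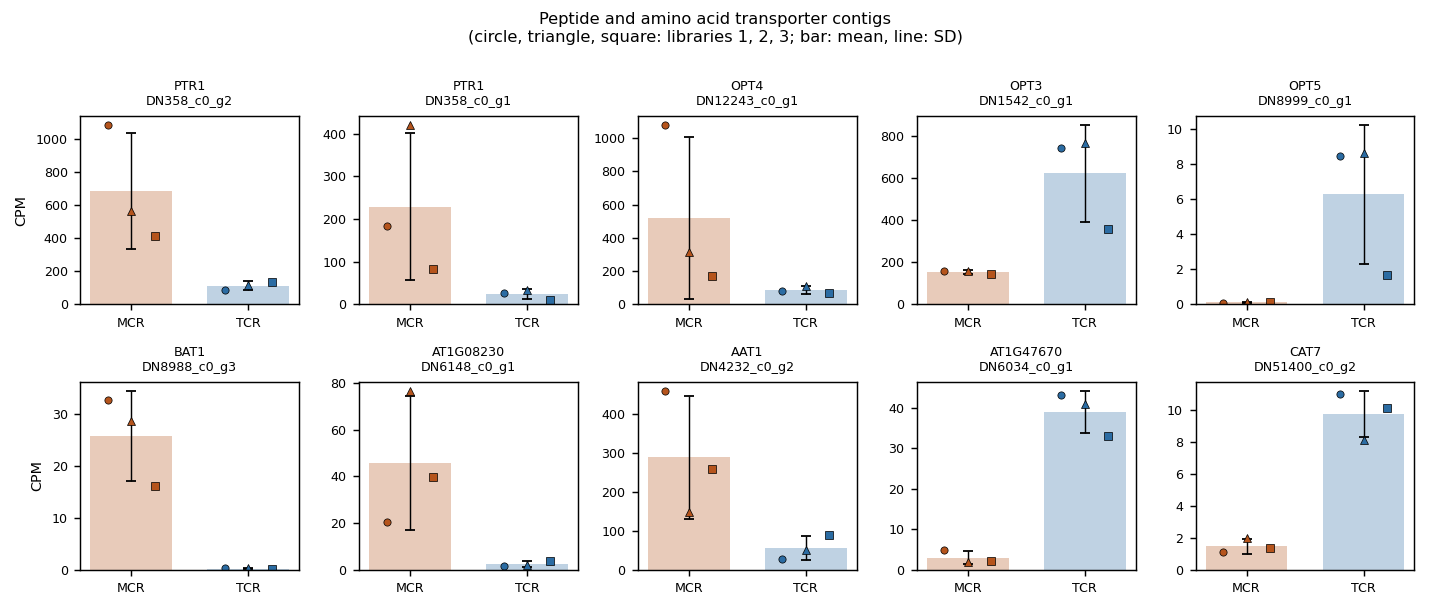
CPM (vertical axis, starting at 0, a scale of its own in each panel) of 10 contigs of peptide and amino acid transport, MCR left and TCR right. Points are libraries 1, 2 and 3, bars the mean and lines the SD (n = 3). OPT5 is near 0 in MCR and at 1.69 CPM or more in every TCR library, whereas BAT1 is at 16.1 CPM or more in every MCR library and near 0 in TCR.

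Members that matched the same Arabidopsis gene did not always share a direction. Of 14 Arabidopsis genes matched by more than 1 member, 6 had members of both directions: NRT1:2, AAP2, AAT1, AT3G28960, GRP23 and AT2G39210, the last a Major facilitator protein with DN8572_c0_g1 higher in MCR (a change of 1.61 ± 0.36) and DN5956_c0_g1 higher in TCR (-1.94 ± 0.64). Of 8 assembly clusters with more than 1 member, 3 had both directions (AAP2, AT3G28960 and GRP23). Whether contigs of 1 match are separate genes, alleles or pieces of 1 transcript cannot be told from the files. The 79 contigs matched 60 Arabidopsis genes and came from 69 assembly clusters, so they may not be 79 separate genes.

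**Figure D4:**
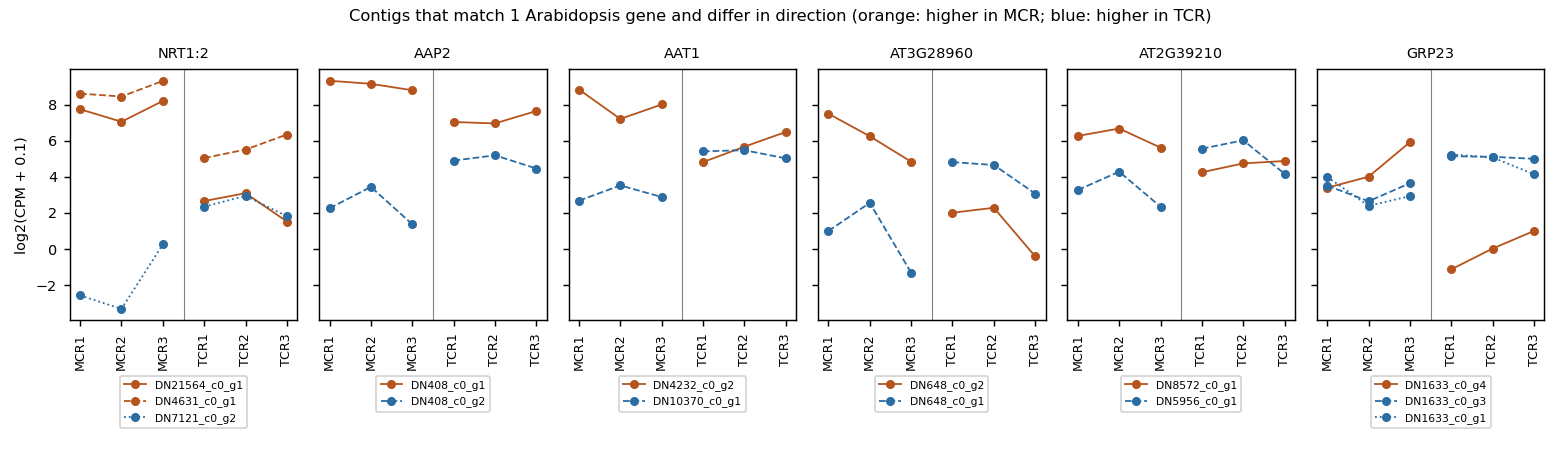
Level by library, as log2(CPM + 0.1), of the contigs of the 6 Arabidopsis genes with members of both directions, MCR1 to MCR3 left of the vertical line and TCR1 to TCR3 right of it. Orange marks contigs with the higher level in MCR and blue those with the higher level in TCR; only the AT2G39210 panel has a contig whose root types overlap, DN5956_c0_g1, with MCR2 above TCR3.

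Major facilitator proteins made up 31 of the members, 9 higher in MCR and 22 higher in TCR. The superfamily carries sugars, nitrate, peptides and other small molecules, and most of these contigs have no further name in the annotation, so membership does not make a contig a nitrogen transporter. Nitrate or peptide transporters may be among the contigs without a name, in either direction. STP13 (AT5G26340), in Arabidopsis a hexose transporter, had 2 contigs. DN10000_c0_g1 had 280.0, 77.3 and 115 CPM in MCR1–3, against 0, 0.245 and 0.0544 CPM in TCR1–3, a change of 10.48 ± 1.02, the largest of all members, which was 11.08 without MCR2 and 12.01 without TCR2. It had 7257 counts over the 3 MCR libraries and 5 over the 3 TCR libraries, a ratio of 1496 of the MCR to the TCR level (95% interval 641 to 4608, counting error only). The second STP13 contig, DN2608_c0_g1, had 1453, 323 and 127 CPM in MCR1–3, against 347, 356 and 156 CPM in TCR1–3, a change of 1.15 ± 0.84. It overlapped, and its direction rested on MCR1: the change was -0.05 without MCR1 and 1.76 without MCR2. DN3753_c0_g1 (AT4G34950) had 431, 482 and 417 CPM in MCR1–3, against 26.4, 30.6 and 23.4 CPM in TCR1–3, a change of 4.05 ± 0.28, and DN5466_c0_g1 (AT1G80530) had 88.0, 96.6 and 93.7 CPM in MCR1–3, against 10.7, 10.2 and 20.3 CPM in TCR1–3, a change of 2.76 ± 0.36. Both had MCR libraries that differed by less than 1.5-fold. DN970_c0_g1 (AT2G30300) had 26.8, 19.3 and 4.32 CPM in MCR1–3, against 2.93, 2.76 and 0.218 CPM in TCR1–3, a change of 3.09 ± 1.03, with number 3 the lowest library of each root type.

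Among the Major facilitator contigs lower in MCR, DN8258_c0_g1 (AT3G45680) and 2 contigs of cluster DN11690_c0 (AT1G52190) had the largest changes. DN8258_c0_g1 had 0.0679, 0.0624 and 0.0608 CPM in MCR1–3, against 15.7, 11.8 and 8.22 CPM in TCR1–3, a change of -7.38 ± 0.64. Its MCR level rested on 3 counts, 1 in each library, against 563 counts in TCR, a ratio of 182 of the TCR to the MCR level (95% interval 62.0 to 886, counting error only). DN11690_c0_g1 had 0.204, 0.437 and 0.730 CPM in MCR1–3, against 57.7, 63.2 and 61.1 CPM in TCR1–3, a change of -7.02 ± 0.52, which was -6.43 without MCR1. DN11690_c0_g2 had 0.136, 0.0624 and 0 CPM in MCR1–3, against 4.15, 4.84 and 2.07 CPM in TCR1–3, a change of -5.67 ± 1.13 and of -6.31 without MCR1. Over all libraries this contig had 3 counts in MCR, against 175 in TCR, which is a TCR level of 56.6 times the MCR level (95% interval 19.1 to 277, counting error only). With the third contig of the cluster, AT1G52190 summed to 21.3 ± 2.76 CPM in MCR and 196 ± 59.9 CPM in TCR, and AT3G45680 to 54.1 ± 26.8 CPM in MCR and 152 ± 19.4 CPM in TCR (SD, n = 3 each). The sums thus differed much less than the contigs named first. AT2G48020 had 3 contigs lower in MCR. DN4221_c0_g1 had 0.204, 0.249 and 0.547 CPM in MCR1–3, against 9.88, 8.21 and 3.43 CPM in TCR1–3, a change of -4.39 ± 0.78 and of -5.02 without MCR3. DN2011_c0_g1 had 237, 164 and 219 CPM in MCR1–3, against 818, 791 and 309 CPM in TCR1–3, a change of -1.63 ± 0.42, with TCR3 well below TCR1 and TCR2.

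The other 21 Major facilitator contigs comprised 4 higher in MCR, with changes of 1.61 to 2.42, and 17 higher in TCR, with changes of -3.03 to -1.26. The largest change of each direction moved with single libraries: the contig at 2.42, DN4107_c0_g1, was at 1.42 without MCR2 and 3.08 without MCR1, and the contig at -3.03, DN12997_c0_g1, was at -4.14 without MCR1. Between them, DN399_c0_g1 had a change of 1.85, and of 0.91 without MCR1, and DN14759_c0_g1 one of -2.03, which was -1.42 without MCR2 and -3.11 without MCR3. Of the 4 and 17, 1 and 4 overlapped between root types. Among the 17, DN3220_c0_g1 (AT4G22990), is described as a Major facilitator protein with an SPX domain, a domain that senses P status, and had 20.1, 10.3 and 9.97 CPM in MCR1–3, against 45.2, 52.8 and 36.8 CPM in TCR1–3, a change of -1.74 ± 0.38. The 5 contigs with other uses of the words amino acid comprised 2 higher in MCR and 3 higher in TCR. Branched-chain amino acid transaminases, which make or break down leucine, isoleucine and valine, were among both. BCAT-2 (AT1G10070, DN12089_c0_g1) had 155, 93.4 and 13.6 CPM in MCR1–3, against 31.4, 39.7 and 10.9 CPM in TCR1–3, a change of 1.68 ± 0.84 with overlap. BCAT-5 (AT5G65780, DN4557_c0_g1) had 11.7, 13.7 and 10.5 CPM in MCR1–3, against 53.2, 54.0 and 40.4 CPM in TCR1–3, a change of -2.04 ± 0.29 without overlap. DN162660_c0_g1 and DN8390_c0_g1, left out by the CPM minimum, also matched BCAT-5 and were higher in MCR. The remaining 3 of the 5 were contigs of an amino acid dehydrogenase family protein (AT3G12290, DN132_c1_g1, 1.72 ± 0.31), of an amino acid kinase family protein (AT3G18680, DN27008_c0_g1, -2.71 ± 0.43) and of MURE (AT1G63680, DN16333_c0_g1, -2.22 ± 0.47), none of which overlapped. The contigs of this paragraph, the AT2G39210 contigs, DN2385_c0_g1, DN4897_c0_g1, DN3601_c0_g1, DN10370_c0_g1 and DN5881_c0_g1 fell outside the rule for naming and were picked once their values had been seen.

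The spread between libraries was described separately for each direction. In the 32 members higher in MCR, the highest MCR library was a median of 3.70 times the lowest, and it exceeded 3 times the lowest in 18 of them (56.3%, against 41.7% of the annotated contigs higher in MCR that passed the CPM minimum). In the 47 members higher in TCR the median for the TCR libraries was 1.89, and 7 exceeded 3 times (14.9%, against 13.9%). TCR3 was the lowest TCR library in 38 of these 47 (80.9%, against 75.9% of the annotated contigs higher in TCR that passed the CPM minimum). MCR3 was the lowest MCR library in 14 of the 32 members higher in MCR (43.8%, against 31.9% of the annotated contigs higher in MCR), and TCR3 was the TCR library with the highest value in 17 of them (53.1%, against 47.8%). Leaving out each library in turn moved the fitted change by more than 1.5-fold in 26 of the 79 members and left it within that in 53. MCR1 did so in 15 members, MCR2 in 13, MCR3 in 7, TCR3 in 3, TCR2 in 1 and TCR1 in 0.

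**Figure D5:**
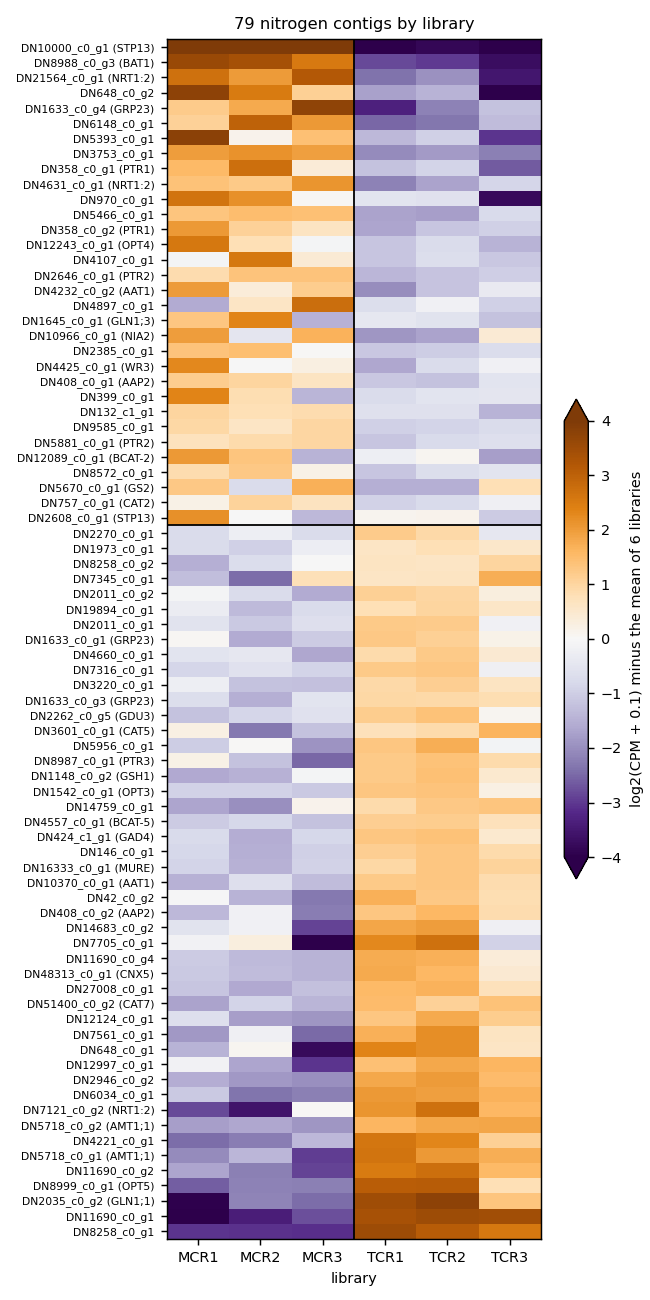
Level of each of the 79 contigs by library, as log2(CPM + 0.1) minus the mean of its 6 libraries (orange above the mean, purple below, limits at 4). Columns are MCR1 to MCR3, then TCR1 to TCR3; rows are ordered by the fitted change, with the 32 contigs higher in MCR above the horizontal line. TCR3 is paler than TCR1 and TCR2 in most rows below the line, where it is the lowest TCR library in 38 of 47.

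The CPM minimum left out 61 contigs of the same words, and these included further genes of nitrogen assimilation. They come from the same table of contigs chosen for a difference. All 61 were higher in MCR, as were 94.4% of the 3215 annotated contigs below the minimum. Of the 61, 1 was called (60 with the replicate block), against 0.684% of the 3215 (93.3% with the block), so nothing is read from these counts. The highest MCR library was MCR2 in 43, MCR1 in 12 and MCR3 in 6, and MCR3 had no counts in 41. Their summed level was 133, 530 and 109 CPM in MCR1, MCR2 and MCR3, against 8.66, 11.8 and 0.490 CPM in TCR1, TCR2 and TCR3. NIR1 (AT2G15620), the nitrite reductase, had 1.09, 24.5 and 0.182 CPM in MCR1–3, against 0.215, 0.306 and 0 CPM in TCR1–3 in DN263_c1_g1. GLU1 (AT5G04140), the ferredoxin-dependent glutamate synthase, had 21.8 CPM in MCR2 and no count in any other library in DN7623_c0_g1. NRT2.5 (AT1G12940), a high-affinity nitrate transporter, had 7.06 and 5.93 CPM in MCR1 and MCR2 and none in MCR3, against 0.0716, 0.368 and 0 CPM in TCR1–3 in DN13878_c0_g1. The ammonium transporter AMT1;2 (AT1G64780) had 3.12 and 7.42 CPM in MCR1 and MCR2 and none in MCR3, against 0, 0.306 and 0 CPM in TCR1–3 in DN14594_c0_g1. Several of these contigs therefore had high values in 1 or 2 MCR libraries, with no or few counts in MCR3. Nitrite reductase and glutamate synthase, the steps on either side of glutamine synthetase, had no contig among the 79.

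At the edge of the rule, the members with the lowest authors' CPM in their higher root type were DN7705_c0_g1 at 1.09, OPT5 at 2.11 and DN11690_c0_g2 at 2.58. The contigs just outside were 2 of cluster DN212_c0 (AT2G26690, Major facilitator) at 0.642 and 0.452 and DN17529_c0_g1 (AT1G08230) at 0.389. Both DN212_c0 contigs were high in MCR2, at 106 and 54.4 in the authors' CPM.

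A further list of words, which the rule does not cover, gave 31 annotated contigs, of which 11 passed the CPM minimum. It was wider than nitrogen metabolism. Carbonic anhydrases made up 8 of the 31 (2 past the minimum), chloride channels 4 (1 past it), SLAC1 homologues 2 (both past it) and molybdenum cofactor words 1 (past it). MCR held the higher level in 8 of these 11 and TCR in 3, and 5 and 2 of them were called, beside the 2.4% and 5.98% of all contigs tested and the 16.9% and 53.2% of annotated contigs that passed the same minimum. These 11 also come from contigs chosen for a difference, and nothing is read from their counts. The ureide permease UPS2 (AT2G03530, DN644_c0_g1), whose family carries allantoin and uracil in Arabidopsis, had 95.6, 141 and 184 CPM in MCR1–3, against 24.6, 31.6 and 45.6 CPM in TCR1–3. Urease accessory protein UREG (AT2G34470, DN4371_c1_g2), which helps load nickel into urease, had 174, 277 and 656 CPM in MCR1–3, against 53.0, 68.8 and 149.7 CPM in TCR1–3. Ornithine aminotransferase, DELTA-OAT (AT5G46180), had contigs of both directions: DN2753_c0_g1 had a change of 2.04 ± 0.27 and DN20230_c0_g1 of -5.45 ± 1.16. The molybdenum cofactor sulfurase ABA3 (AT1G16540, DN1822_c0_g1), which activates aldehyde oxidase and not nitrate reductase, had 983, 269 and 204 CPM in MCR1–3, against 11, 13 and 3.10 CPM in TCR1–3. Among these genes, too, direction differed between contigs of 1 match, and the libraries numbered 3 were the highest in some contigs and the lowest in others.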

How the data were processed

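RNA-Seq was performed by the authors on 3 MCR and 3 TCR libraries (poly(A) RNA, strand-marking kit, 150 bp paired-end reads). Per the submitters' processing notes, Trimmomatic 0.39, Salmon 1.9.0 and edgeR 4.0.14 were used, with Arabidopsis TAIR10 named as a build. The reads were assembled de novo with Trinity, without a reference genome, and gene names are those of the Arabidopsis match that the authors assigned to each contig.

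The deposited estimated counts (Salmon, 1 value per contig and library) carry no normalization and were rounded to whole numbers here. The CPM values in the authors' table were normalized by the authors and were used here only for the selection of members, the edge of the rule and the marker sums. The columns with the authors' own comparison (mean CPM, fold changes, p-values and q-values) were not used. No contig sequence or length was used, so levels are not compared between contigs. How reads common to contigs of 1 cluster were divided is uncertain.

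A mean CPM of at least 0.4 in 1 root type or both was required (49813 contigs). In R 4.3.3, edgeR 4.0.16 fitted root type as the only term (TMM factors from 0.868 to 1.18, quasi-likelihood test, Benjamini-Hochberg adjustment). The SE was taken as the absolute change over the root of its F value. A call required both an adjusted p under 0.05 and a change of at least 1 in either direction on the log2 scale. Printed CPM values use these TMM factors. Intervals of ratios of counts are exact 95% binomial intervals and cover counting error only. The fit was tested on simulated data.

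Libraries with the same number in the titles were checked for pairing: over 14706 contigs their deviations from the root type means correlated at 0.336 (MCR1 with TCR1), 0.363 (MCR2 with TCR2) and 0.477 (MCR3 with TCR3), on log2 CPM with 0.5 added. Numbers 1 and 2 were hardly told apart (0.316 for MCR1 with TCR2 and 0.185 for MCR2 with TCR1), whereas number 3 with another number gave -0.502 to -0.295. A fit with the replicate block was therefore made as well. Further alternatives were RLE size factors, library size alone, no low-count filter, a CPM minimum in at least 3 libraries, DESeq2 1.42.0, the exact test of edgeR, limma 3.58.1 with voom weights, calls without a minimum change, other CPM minimums of the rule and the omission of each library.

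The members, their groups and the lists were chosen with earlier results of these data known. Members were named with all values if they belonged to nitrate, ammonium, glutamine, glutamate or asparagine words, or if, among peptide, amino acid or Major facilitator contigs, they were the 4 with the largest change in each direction or the 3 with the highest mean CPM. CNX5 was grouped with nitrate transport by its words. Figures were drawn with matplotlib 3.10.9 in Python 3.11.15.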

Additional observations from a re-analysis of the deposited data

How the results depend on the processing

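The counts of calls depended on the test and on single libraries. The direction turned in none of the 79 under any alternative run, except in the STP13 contig DN2608_c0_g1 (log2 fold change 1.15, and -0.05 without MCR1). Since the members were chosen for a difference in these same libraries, directions could hardly turn, and nothing is read from this. The numbers called higher in MCR and in TCR were 19 and 26, beside 2.4% and 5.98% of all contigs tested. They were 32 and 47 with no low-count filter (2.7% and 2.33% of 183826 contigs) and 30 and 47 with the replicate block (20.1% and 15.4%). With 1 library left out they were 4 to 26 and 3 to 33 (0.417% to 5.74% and 0.656% to 7.65%). The lowest numbers came without TCR1 (4 and 3) and without TCR2 (4 and 4), and 16 were called higher in TCR without MCR1 (3.14%). Over all contigs 4177 were called, against 9240 with no low-count filter, 6552 with the edgeR exact test, 9187 with DESeq2, 17704 with the replicate block and 535 to 7460 with 1 library left out. The set held 140 contigs with no CPM minimum, 80 with a minimum of 0.5 and 78 with a minimum of 2. Scaling moved the split of calls: the share higher in MCR among all called contigs was 28.6% with TMM factors, 39.8% with RLE factors and 19.8% when libraries were scaled by their size only, and among called members 42.2%, 47.7% and 33.3% in the same order. The median change of all contigs tested was 0.57, 0.84 and 0.37 with these scalings. Of the values of named contigs under the alternatives, 641 stayed within 1 SE and 31 moved further. In members with 10 counts or fewer in 1 root type, counting error limits the ratio of the root types. The cause of the differences between libraries was not tested.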
